A study of Schizosaccharomyces pombe with 6 samples.

Results

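The genes described here are those of the respiratory chain, the ATP synthase and the tricarboxylic acid (TCA) cycle of the fission yeast Schizosaccharomyces pombe. They were taken by symbol: names made of atp, cox, qcr, sdh, cit, aco, idh, kgd, fum, mdh, cyc, cyt, rip, nde or ndi followed by digits. This gave 70 of the 5160 entries in the deposited expression table. The rule used no measured value. Poly(A)-selected RNA of whole cells was sequenced in 3 wild-type libraries and 3 libraries of a mutant of dsk1, the gene of a kinase that acts on SR splicing proteins. The series text calls the mutant a deletion and the genotype label calls it a knockdown. No treatment, time, age or further allele is given for either group. Whether the replicates are separate cultures is not stated in the labels, and the p-values below rest on the spread between these libraries alone, which may be technical.

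In respiration, the TCA cycle oxidises acetyl units in the mitochondrial matrix and hands electrons to NADH and to succinate dehydrogenase, which is also complex II of the respiratory chain. Fission yeast has no proton-pumping complex I, and single-polypeptide NADH dehydrogenases pass electrons to ubiquinone, from which complex III, cytochrome c and complex IV carry them to oxygen. Complexes III and IV pump protons, and the ATP synthase uses the resulting gradient to make ATP. Most subunits are encoded in the nucleus, while a few core subunits of complexes III and IV and of the ATP synthase are encoded by the mitochondrial genome.

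The libraries held 15700362 to 19020530 counts. Wild-type replicate 2 stood apart on the leading principal component (60.1% of the variance), at -37.9 against -9.54 and -2.29 for the other wild-type libraries and 13.1 to 19.6 for the mutant. The dsk1 transcript was at 99.4, 102 and 99.96 CPM (counts scaled to the library total and TMM factor) in the wild type and at 13.7, 11.3 and 11.9 CPM in the mutant. In edgeR's quasi-likelihood test this was a log2 fold change, mutant over wild type, of -3.03 (SE 0.13, adjusted p = 1.34e-04). The counts of the pyrimidine synthesis gene ura4 were 1957, 1392 and 1710 in the mutant and 0 in all wild-type libraries. The groups thus differ in another gene than dsk1, and the labels name no allele for it. Markers of meiotic or sporulating cells (mei4, spo5, isp3, bgs2, mde2 and spo6) summed to 174.5 to 223.6 CPM in the wild type and 205.4 to 216.9 CPM in the mutant. The largest part of each sum was bgs2, at 110.2 to 124.4 CPM in the wild type and 111.4 to 133.6 CPM in the mutant. EdgeR tested 5 of the 6 and called 0, with 0 at an unadjusted p under 0.05 and 0 in DESeq2. The log2 fold changes were 0.33 for mei4, 0.15 for spo5, 0.08 for bgs2, -0.41 for isp3 and -0.20 for spo6. In mei4 every mutant library was above every wild-type library. The counts of mde2 were 4, 0 and 2 in the wild type and 0 in every mutant library.

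Levels are given per length, as FPKM (fragment counts scaled by transcript length and library total, as deposited), wherever genes are compared with each other. The members' FPKM values summed to 2.26% to 2.34% of each wild-type library's total and to 2.08% to 2.24% of each mutant library's. In the wild type, the 44 tested nuclear genes of subunits, enzymes and cytochrome c had a median level of 249 FPKM, and the 19 assembly and maturation factors had a median of 22.5 FPKM. The median over all tested genes was 39.75 FPKM. The most abundant member was atp2, the catalytic beta subunit of the ATP synthase, at 1235 ± 107 FPKM (SD, n = 3). Next came qcr1 at 890 ± 149 FPKM and cytochrome c (cyc1) at 814 ± 240 FPKM (SD, n = 3 each), which differed by less than their spread. The plot of wild-type levels by complex shows this separation of structural genes from assembly factors.

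**Figure D1:**
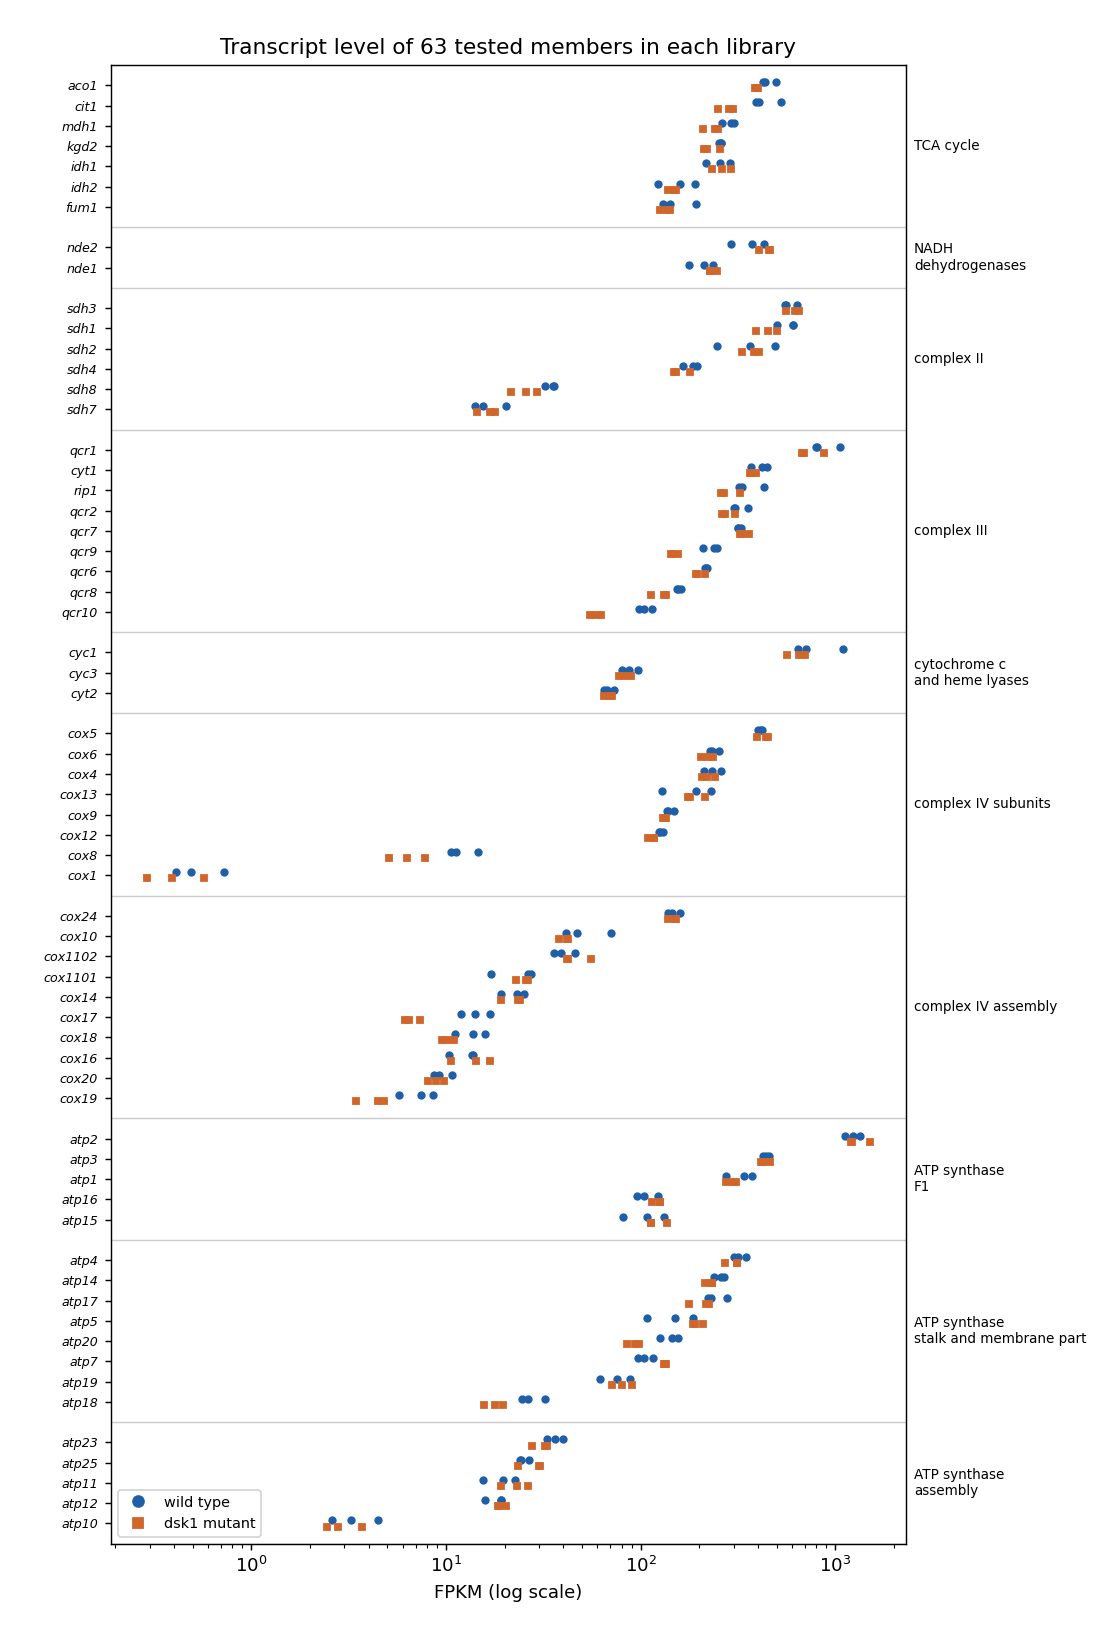
Level in FPKM on a log axis of 63 of the 64 tested members, arranged by complex or step, with a circle for each wild-type library and a square for each mutant library. Subunits and enzymes mostly lie above 100 FPKM, assembly factors mostly below 50 FPKM, and cox1, the only mitochondrially encoded gene tested, below 1 FPKM.

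The 6 members encoded by the mitochondrial genome were at or near 0. The complex IV core subunit gene cox1 was counted 13, 11 and 21 times in the wild type and 9, 16 and 10 times in the mutant, the only one of the 6 that passed the filter on low counts. The counts of cox2 were 0, 0 and 2 in the wild type and 2, 1 and 1 in the mutant. For cox3 they were 0, 1 and 7 against 1, 0 and 1. The proton-channel gene atp6 had 1, 0 and 9 counts in the wild type and 0, 1 and 5 in the mutant, and the c-ring gene atp9 had 1 count, in wild-type replicate 1. The ATP synthase subunit 8 gene atp8 had no count in any library, which allows up to 3 counts, or 0.158 to 0.191 CPM, in each. The libraries were selected with oligo(dT), and how far that sets these levels was not tested. The nuclear gene cox7 was also left out by the filter, with 2, 0 and 1 counts in the wild type and 1, 0 and 1 in the mutant.

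Among the tested members, edgeR called 3 lower in the dsk1 mutant and 0 higher. The 3 called were qcr10 and qcr9, small subunits of complex III, and cox17, a copper chaperone for complex IV. Their decreases were between 1.61-fold and 2.20-fold. Of the 64 members that passed the filter, these 3 are 4.69%, whereas 1.58% of all 4987 genes tested were called lower and 0.441% higher, 2.03% in either direction. At an unadjusted p under 0.05, 11 members were lower and 1 was higher, against 13.5% and 9.20% of all tested genes. The remaining 61 members did not pass. The 3 calls were lost without wild-type replicate 1 or any one of the mutant libraries, and 7 members were called without wild-type replicate 2, with atp20, atp18, cox19 and cit1 added. Those 7 are 10.9% of the members tested in that fit, where 6.02% of all genes were called lower and 9.32% in either direction. In these bulk libraries, fewer cells that express a gene and less RNA per cell cannot be told apart.

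The median log2 fold change of the 64 members was -0.16, and 44 of them (68.8%) lay below 0, against a median of -0.0003 and 50.0% below 0 over all tested genes. In 14 members (21.9%) every mutant library was below every wild-type library, and in 1 (1.56%) every mutant library was above. Over all tested genes these shares were 16.6% and 15.5%, together 32.1%. Of the 64 members, the DESeq2 Wald test called 8 lower and 0 higher. Of the 5112 genes in that test, 7.10% were called lower and 4.01% higher, 11.1% together. The 8 were qcr10, qcr9, qcr8, cox17, cox19, cit1, atp20 and atp18. The authors' deposited table lists 8 members as lower and 0 as higher at an adjusted p under 0.05, among 363 lower and 205 higher entries. Its adjusted p-values for these 8 members equal those of the DESeq2 run above, so it is not a separate test. Limma on log2(FPKM + 1), which left out cox1, called 3 of the 64 members lower and 0 higher. Of the 4976 genes in that test, 1.53% were called lower and 0.402% higher, 1.93% together.

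**Figure D2:**
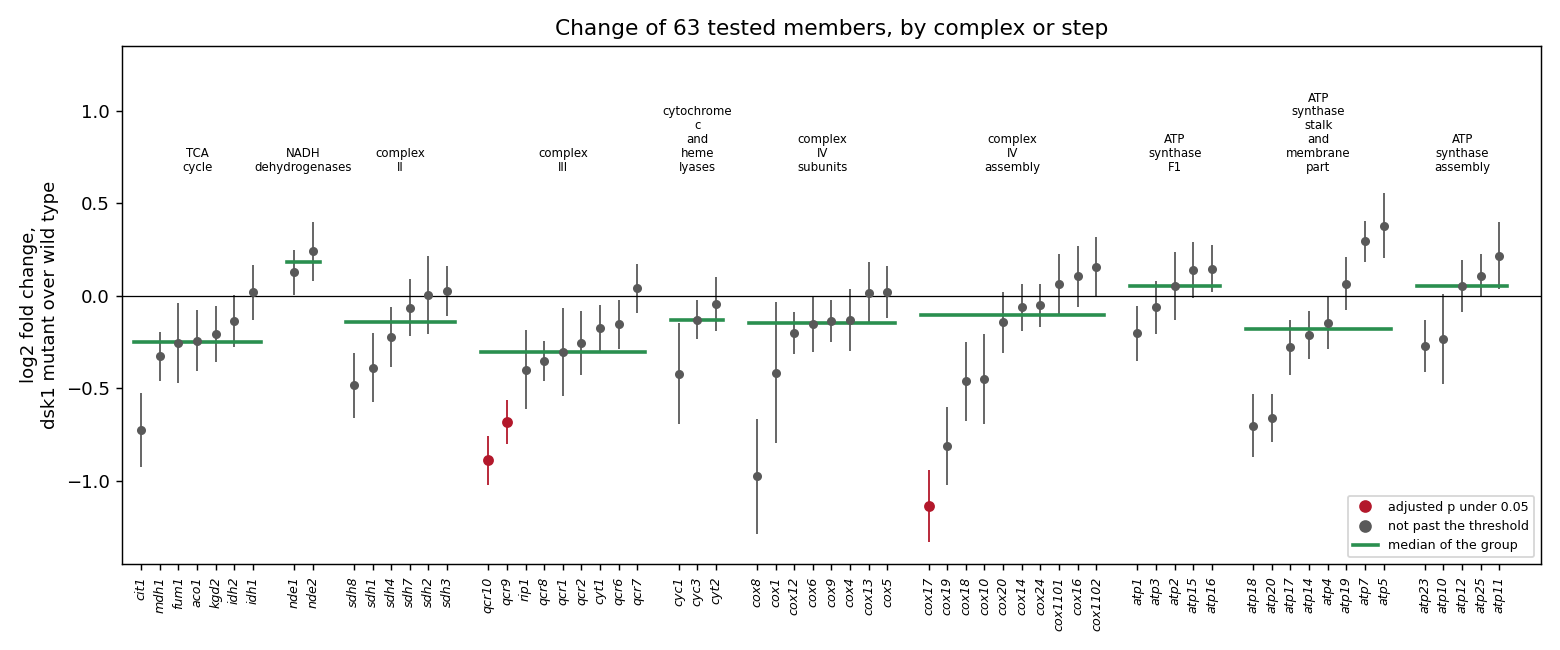
Log2 fold change, mutant over wild type, of 63 of the 64 tested members by complex or step, with bars for the standard error of the edgeR fit and green lines at the median of all tested members of a group. The called genes qcr10, qcr9 and cox17 lie at -0.89, -0.68 and -1.14, and most other members lie between -0.5 and 0.4.

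The TCA cycle enzymes had a median log2 fold change of -0.25, with 7 of 8 members below 0 and 0 called by edgeR. At an unadjusted p under 0.05, 2 were lower and 0 higher, against 13.5% and 9.20% of all tested genes. DESeq2 called 1 lower, against 7.10% of all genes, and limma 0. Without wild-type replicate 2 the median was -0.15. Citrate synthase, cit1, which condenses acetyl-CoA with oxaloacetate to open the cycle, was at 692.9, 1022 and 650.3 CPM in the wild type and at 416.8, 488.8 and 521.5 CPM in the mutant. Every mutant library was below every wild-type library, and wild-type replicate 2 was the highest of all. The log2 fold change was -0.73 (SE 0.20, adjusted p = 0.101), and -0.50 without wild-type replicate 2, where edgeR called it (adjusted p = 0.04995).

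Malate dehydrogenase, mdh1, which regenerates oxaloacetate, was at 405.7, 413.3 and 413.4 CPM in the wild type and at 283.1, 323.9 and 374.4 CPM in the mutant. The groups did not overlap, but the mutant libraries spread widely, and the log2 fold change of -0.33 did not pass (SE 0.13, adjusted p = 0.196). The aconitase gene aco1, whose product isomerises citrate, was at -0.24 on the log2 scale (SE 0.17, adjusted p = 0.397), with overlapping groups. The subunits of NAD-dependent isocitrate dehydrogenase, idh1 and idh2, were at 0.02 and -0.14 on the log2 scale, with an FPKM ratio of 1.63 ± 0.13 in the wild type and 1.79 ± 0.15 in the mutant (SD, n = 3 each). Fumarase, fum1, was at -0.26, and at 0.02 without wild-type replicate 2. Its wild-type level of 154 ± 33.2 FPKM differed from that of idh2, 157 ± 33.6 FPKM (SD, n = 3 each), by less than their spread. The E2 subunit gene of oxoglutarate dehydrogenase, kgd2, was at -0.21, with 76.9% of its span under plh1 on the other strand.

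The NADH dehydrogenase genes nde1 and nde2, whose products oxidise NADH without pumping protons, were both at values above 0. Their log2 fold changes were 0.13 (SE 0.12, adjusted p = 0.551) and 0.24 (SE 0.16, adjusted p = 0.387) in the edgeR fit. In FPKM, nde2 stood at 431, 292 and 372 in the wild type and 462, 405 and 455 in the mutant. The groups overlapped, with wild-type replicate 2 the lowest library. The ratio of nde1 to nde2 was 0.57 ± 0.03 in the wild type and 0.53 ± 0.06 in the mutant (SD, n = 3 each). Neither was below an unadjusted p of 0.05, and DESeq2 and limma called 0.

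Complex II genes had a median log2 fold change of -0.14 over 4 subunits and 2 assembly factors, with 4 of 6 below 0 and 0 called by edgeR, DESeq2 or limma. At an unadjusted p under 0.05, 1 was lower, against 13.5% of all tested genes. This was the assembly factor sdh8, at 27.7, 35.2 and 29.9 CPM in the wild type and 18.1, 24.2 and 23.9 CPM in the mutant, a log2 fold change of -0.49 (SE 0.17, adjusted p = 0.166). Its groups did not overlap. The flavoprotein gene sdh1, which carries the succinate-oxidising site, was at -0.39 (SE 0.19, adjusted p = 0.259), while the iron-sulfur subunit gene sdh2 was at 0.00 (SE 0.21). In the wild type sdh2 varied from 247 FPKM in replicate 2 to 367 and 490 FPKM in the others, and the mutant libraries at 332, 384 and 405 FPKM fell inside that range. The anchor gene sdh3, at 582 ± 44.9 FPKM, was at 0.02 on the log2 scale, and its wild-type level differed from that of sdh1 (570.2 ± 58.4 FPKM, SD, n = 3 each) by less than their spread. The gene sdh4 was at -0.22 and the assembly factor gene sdh7, the least abundant, at -0.06. Of the sdh7 span 63.9% lies under pkr1 on the opposite strand, which makes its counts uncertain. The deposited annotation of sdh4 names a Tim18 protein of the inner membrane, so its place in complex II rests on the symbol.

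Complex III held 2 of the 3 called members and had a median of -0.31, with 8 of 9 genes below 0. The called genes were 22.2% of its 9, against 1.58% of all tested genes called lower. The median was -0.17 without wild-type replicate 2 and -0.20 without mutant replicate 2, and -0.22 with the trend of level with gene length removed. Its subunit gene qcr10 was at 40.8, 49.6 and 46.4 CPM in the wild type and at 25.4, 23.7 and 24.7 CPM in the mutant. The mutant libraries lay close together and well below the wild type. The means were 45.6 ± 4.44 and 24.6 ± 0.817 CPM (SD, n = 3 each), and edgeR called the gene lower (log2 fold change -0.89, SE 0.13, adjusted p = 0.0295), a 1.86-fold decrease. Without wild-type replicate 1 or any one mutant library it stayed between -0.96 and -0.87 and did not pass (edgeR, adjusted p = 0.0858 to 0.177).

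The other small subunit gene called lower, qcr9, was at 158.9, 153.9 and 150.2 CPM in the wild type and at 91.7, 88.1 and 108.4 CPM in the mutant. Mutant replicate 3 was the highest mutant library and still below the wild type. The log2 fold change was -0.68 (SE 0.12, adjusted p = 0.0379, edgeR), and with the same libraries left out it did not pass (adjusted p = 0.105 to 0.252). On the other strand, mcm3 covers 77.3% of qcr9, and strand use in the counting is not given in the sources used here, so the counts of qcr9 are uncertain. For qcr8, also a small subunit, the groups did not overlap either, with 92.0, 104.1 and 93.8 CPM in the wild type and 76.3, 77.7 and 73.1 CPM in the mutant. Its log2 fold change of -0.35 (SE 0.11) passed in DESeq2 (adjusted p = 0.0458) but not in edgeR (adjusted p = 0.126).

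The remaining complex III subunits did not pass, and their groups overlapped. The catalytic subunit genes were at -0.40 for rip1, the Rieske iron-sulfur protein, and at -0.18 for cyt1, cytochrome c1. The whole span of rip1 lies under ppa2 on the opposite strand, and its counts are uncertain. The gene qcr1 was at -0.31, the core protein gene qcr2 at -0.26, the acidic hinge protein gene qcr6 at -0.16 and qcr7 at 0.04. The deposited annotation of qcr1 names the beta subunit of the mitochondrial processing peptidase, which removes targeting signals from imported proteins. The place of qcr1 in complex III thus rests on the symbol. The FPKM values of the 9 genes, qcr1 included, summed to 3017 ± 177 in the wild type and 2559 ± 206 in the mutant (SD, n = 3 each). Mutant replicate 3, with 2796 FPKM, was the nearest to the lowest wild-type library, at 2906 FPKM.

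**Figure D3:**
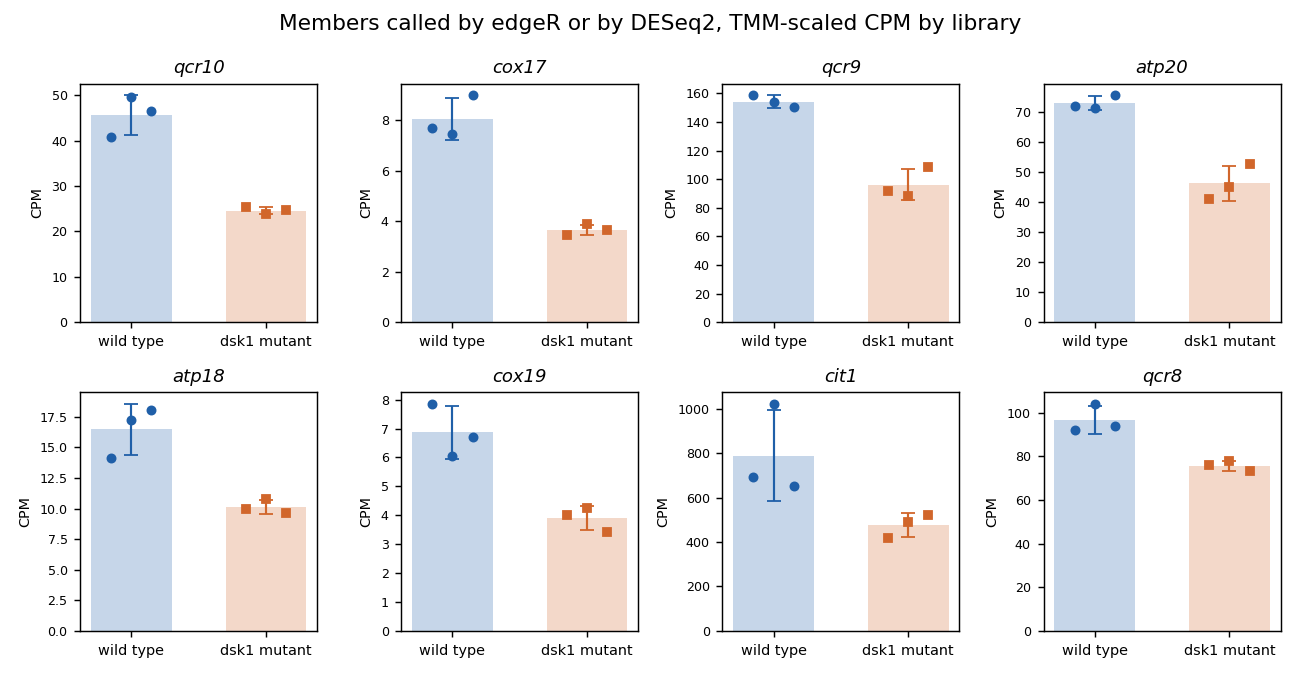
CPM in each library for the members called by edgeR and for further members called by DESeq2, with bars from 0 to the mean of each group and error bars for the SD (n = 3). In qcr10, qcr9 and cox17 every mutant library lies below every wild-type library.

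Cytochrome c, the soluble carrier between complexes III and IV, was at 706, 1089 and 647 FPKM in the wild type and 649, 563 and 697 FPKM in the mutant. Wild-type replicate 2 alone stood above the rest, and the groups overlapped. The log2 fold change of cyc1 was -0.42 (SE 0.27, adjusted p = 0.376), and it moved to -0.06 without wild-type replicate 2. The heme lyase genes, whose products attach heme to cytochromes c and c1, were at -0.13 for cyc3 and -0.04 for cyt2. Of these 3 genes 0 were called by edgeR, DESeq2 or limma, and 0 had an unadjusted p under 0.05.

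The nuclear subunit genes of complex IV mostly lay close to the wild type. Over the 8 tested subunit genes of the complex, cox1 included, the median log2 fold change was -0.15, 6 were below 0 and 0 were called by edgeR, DESeq2 or limma. The median was -0.01 with the trend of level with gene length removed. The most abundant, cox5, was at 415, 418 and 399 FPKM in the wild type and 443, 396 and 450.4 FPKM in the mutant, with overlapping groups and a log2 fold change of 0.02 (SE 0.14). The subunit genes cox4, cox6, cox9 and cox13 were between -0.16 and 0.01, and cox12 was at -0.20 with groups that did not overlap. The only one with an unadjusted p under 0.05, where 13.5% of all tested genes were lower, was cox8. It was at 3.39, 5.31 and 3.52 CPM in the wild type and 1.96, 1.56 and 2.70 CPM in the mutant. All mutant values were below the wild type, and the log2 fold change was -0.98 (SE 0.31, adjusted p = 0.133). Of the cox8 span 99.8% lies under mvd1 on the opposite strand, which makes its counts uncertain.

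Among the complex IV assembly genes, cox17, which delivers copper in the intermembrane space, was called lower and the other 9 did not pass. Of all tested genes 1.58% were called lower. The gene cox17 was at 7.68, 7.46 and 9.0 CPM in the wild type and at 3.47, 3.88 and 3.64 CPM in the mutant. The values within each group were close, and the mutant level was less than the lowest wild-type value in all 3 libraries. The means were 8.05 ± 0.834 and 3.66 ± 0.206 CPM (SD, n = 3 each), a 2.20-fold decrease and a log2 fold change of -1.14 (SE 0.20, adjusted p = 0.0358, edgeR). It did not pass without wild-type replicate 1 or 3 or any one mutant library (edgeR, adjusted p = 0.0574 to 0.227).

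The next member in this group was cox19, which is needed to assemble cytochrome oxidase in budding yeast. It was at 7.86, 6.05 and 6.71 CPM in the wild type and 4.02, 4.25 and 3.44 CPM in the mutant, with no overlap. The log2 fold change of -0.81 (SE 0.21) passed in DESeq2 (adjusted p = 0.0286) but not in edgeR (adjusted p = 0.0929). The membrane insertion factor gene cox18 was at -0.46 and the heme farnesyltransferase gene cox10 at -0.45, with overlapping groups. The copper chaperone genes cox1101 and cox1102, each fused to a mitochondrial ribosomal protein, were at 0.06 and 0.16. Their FPKM ratio was 0.59 ± 0.16 in the wild type and 0.55 ± 0.08 in the mutant (SD, n = 3 each). Paralogs such as these can share reads, and how the counting split such reads is not given in the sources used here. The genes cox14, cox16, cox20 and cox24 were between -0.15 and 0.10. The deposited annotation of cox24 names a mitochondrial mRNA processing protein, so its place among the assembly genes rests on the symbol.

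ATP synthase genes moved in no common direction. In the F1 head, where ATP is formed, the median log2 fold change was 0.05 over 5 genes, and 0 were called by edgeR, DESeq2 or limma or had an unadjusted p under 0.05. The beta subunit gene atp2 was at 1237, 1127 and 1341 FPKM in the wild type and 1203, 1213 and 1507 FPKM in the mutant. The groups overlapped, and mutant replicate 3 was the highest of the 6 libraries. The log2 fold changes were 0.05 for atp2, -0.06 for the gamma subunit gene atp3, -0.20 for the alpha subunit gene atp1, 0.15 for the delta subunit gene atp16 and 0.14 for the epsilon subunit gene atp15. The ratio of atp1 to atp2 was 0.27 ± 0.02 in the wild type and 0.23 ± 0.03 in the mutant (SD, n = 3 each). The length implied by the count and FPKM of atp1 was 4799 bases, and dpp1 on the other strand covers 51.9% of its RefSeq span, so its level per length is uncertain.

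In the stalk and membrane part of the enzyme, 5 of 8 tested genes were below 0, with a median of -0.18 and 0 called by edgeR or limma. At an unadjusted p under 0.05, 2 were lower and 1 was higher, against 13.5% and 9.20% of all tested genes. DESeq2 called 2 lower, against 7.10% of all genes. Both lower genes, atp20 and atp18, encode small membrane subunits, called g and j, which in budding yeast lie at the dimer interface of the enzyme or next to it. For atp20 the values were 72.1, 71.3 and 75.6 CPM in the wild type and 41.1, 44.9 and 52.6 CPM in the mutant, with no overlap. The log2 fold change of -0.66 (SE 0.13) missed the edgeR threshold (adjusted p = 0.0512). For atp18 they were 14.1, 17.3 and 18.1 CPM in the wild type and 9.95, 10.8 and 9.64 CPM in the mutant, a log2 fold change of -0.70 (SE 0.17, adjusted p = 0.0775).

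The stator genes atp7 and atp5 had the highest log2 fold changes of the tested members, and neither was called. For atp7, subunit d, the wild type was at 83.8, 88.8 and 91.4 CPM and the mutant at 105.4, 102.4 and 115.6 CPM. It was the only member with every mutant library above every wild-type library, and its log2 fold change of 0.29 did not pass (SE 0.11, adjusted p = 0.176). For atp5, which joins the stalk to F1, the log2 fold change was 0.38 (SE 0.17, adjusted p = 0.244) and the groups overlapped. The stalk gene atp4 was at -0.15, atp14 at -0.21, atp17 at -0.28 and atp19 at 0.06. The 5 assembly factor genes of the ATP synthase had a median of 0.05, and of -0.07 with the trend of level with gene length removed. Here atp23, a peptidase that matures the Atp6 subunit in budding yeast, was at -0.27, the F1 chaperone genes atp11 and atp12 were at 0.22 and 0.05, atp25 was at 0.11 and atp10 was at -0.23. None of the 5 was called by edgeR, DESeq2 or limma, and 0 had an unadjusted p under 0.05. Coding genes on the other strand cover 99.3% of atp10, 79.0% of atp12 and 55.4% of atp25, so their counts are uncertain.

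The mutant libraries were not alike in these genes. Measured in each library as the median over the 64 members of the log2 difference from the wild-type mean, mutant replicates 1 and 2 stood at -0.22 each and mutant replicate 3 at -0.04. The wild-type libraries stood at -0.07, 0.06 and -0.01, so mutant replicate 3 lay within their range and the other mutant libraries below it. The same order held in complex III, with -0.34 and -0.40 against -0.02, and in the TCA cycle, with -0.34 and -0.34 against -0.08. In the F1 genes replicate 3 was at 0.16 and the others at -0.12 and -0.13. In the complex IV assembly genes replicate 3 was the lowest, at -0.17 against -0.11 and -0.16. Without mutant replicate 3, the median log2 fold change of the 64 members was -0.25, and the F1 and ATP synthase assembly medians were -0.13 and -0.05. Leaving out 1 library moved other medians by over 1.5 times as well. The complex II median was -0.22 without wild-type replicate 1, -0.09 without wild-type replicate 3 and -0.25 without mutant replicate 3. The median of the complex IV subunits was -0.09 without mutant replicate 2 and -0.23 without mutant replicate 3. That of the stalk and membrane genes was -0.11 without wild-type replicate 2 or mutant replicate 1. Without wild-type replicate 2 the medians were -0.06 for cytochrome c and the heme lyases and 0.03 for ATP synthase assembly. Without wild-type replicate 1 that of the NADH dehydrogenases was 0.28 and that of F1 0.03, and F1 was at 0.13 and 0.08 without mutant replicates 1 and 2. Wild-type replicate 2 also differed by gene, being the highest wild-type library in 31 of the 64 members, cyc1, qcr1 and cit1 among them, and the lowest in 20, such as sdh2, atp5 and cox13. Over all tested genes it was the highest in 43.9% and the lowest in 45.7%. The complex IV subunit gene cox13 was at 193, 129 and 229 FPKM in the wild type and 179, 214 and 176 FPKM in the mutant.

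**Figure D4:**
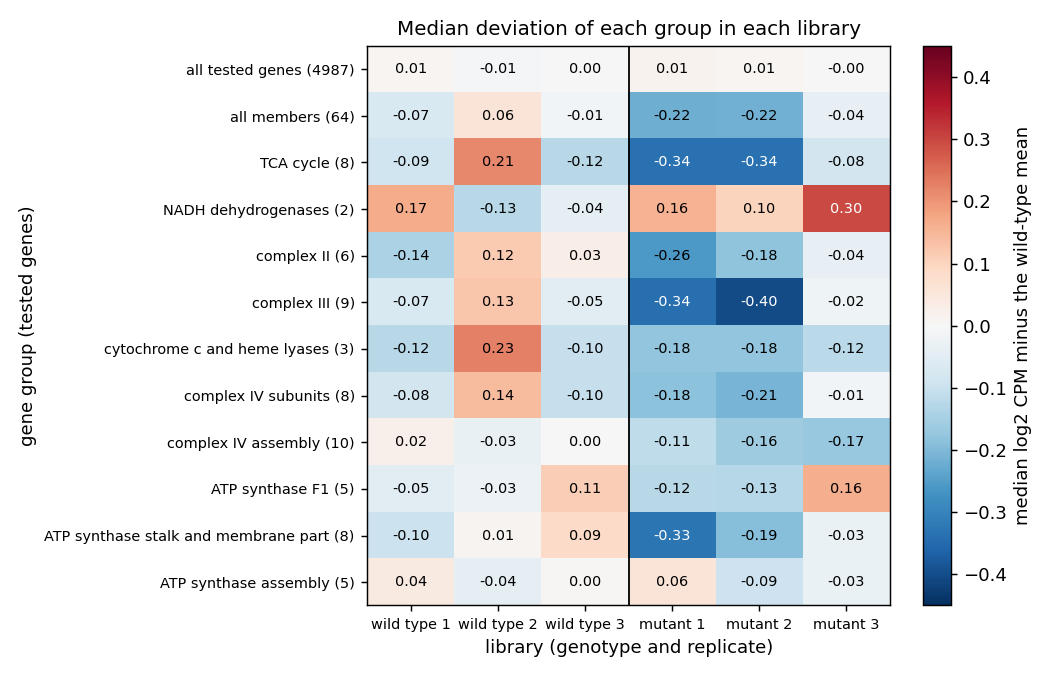
Median log2 difference from the wild-type mean in each library, for all tested members and for each complex or step. Mutant replicates 1 and 2 are lower than mutant replicate 3 in complex III (-0.34, -0.40 and -0.02), while in complex IV assembly replicate 3 is the lowest (-0.17).

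The log2 fold changes were also set against transcript length, and their relation to it differed between groups of members. The called members had implied lengths of 425 bases (qcr10), 656 bases (qcr9) and 559 bases (cox17), against medians of 1223 bases over members and 1826 bases over all tested genes. The Spearman correlation of log2 fold change with length was 0.23 over 63 members and 0.24 over 4978 genes, and genes of 1 set of libraries are not independent. It was 0.83 over the 10 complex IV assembly genes, where cox17 is the shortest, and -0.43 over the 8 TCA cycle genes. Over all genes, the correlation of level, relative to the mean of all libraries, with length was 0.30 and 0.28 in mutant replicates 1 and 2 and between -0.16 and -0.08 in the other 4 libraries. Over the 63 members it was -0.01, -0.18 and -0.43 in the wild type and 0.22, 0.18 and 0.18 in the mutant, so mutant replicate 3 stood with the other mutant libraries there. With that trend removed in each library, edgeR called 2 of the 64 tested members lower and 0 higher. Of all 4987 tested genes, 1.50% were called lower and 0.561% higher, 2.07% together. The 2 were qcr10 at -0.68 (adjusted p = 0.0471) and qcr9 at -0.55 (adjusted p = 0.04995), while cox17 was at -0.97 (adjusted p = 0.0558). The median over members was then -0.10. By group it was -0.29 in the TCA cycle, 0.13 in the NADH dehydrogenases, -0.06 in complex II and -0.22 in complex III. It was -0.11 for cytochrome c and the heme lyases, -0.01 for complex IV subunits and -0.07 for complex IV assembly. In the ATP synthase it was 0.05 for F1, -0.13 for the stalk and membrane part and -0.07 for assembly.

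**Figure D5:**
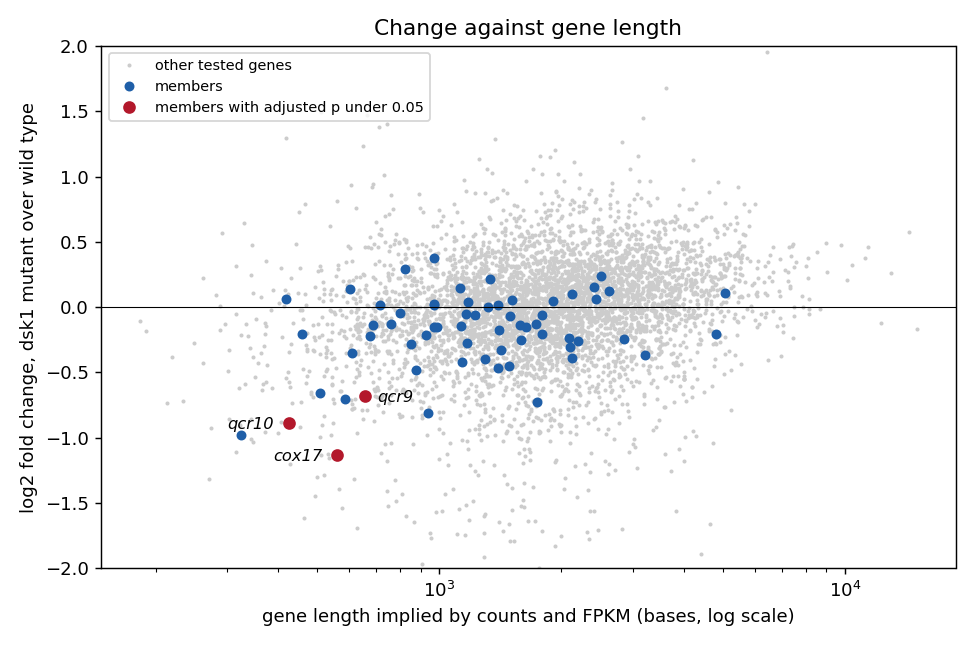
Log2 fold change, mutant over wild type, against gene length in bases implied by count and FPKM (log axis), for 63 tested members and, as grey dots, the other tested genes with values between -2 and 2. The called members, at 425 to 656 bases, lie toward the short end, where members near 0 also occur.

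Counts of overlapping genes are uncertain in 9 members, which have at least 50% of their span under another coding gene in the RefSeq assembly ASM294v3. They are kgd2, sdh7, qcr9, rip1, cox8, atp1, atp25, atp12 and atp10. Of the called genes only qcr9 is among them. Neighbouring members were few: qcr1 lies next to sdh4, and cox17 next to sdh8. The log2 fold changes of the second pair were -1.14 and -0.49, and those of the first -0.31 and -0.22.

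Other genes of respiration outside the symbol rule were read from a list covering ubiquinone synthesis, the supply of the TCA cycle, assembly factors and mitochondrial gene expression. Of 61 matched genes 58 were tested, and 1 was called lower (1.72%) and 0 higher, near the shares of 1.58% and 0.441% over all tested genes. At an unadjusted p under 0.05, 11 were lower and 3 higher, against 13.5% and 9.20% of all genes. DESeq2 called 3 lower (pdx1, tim11 and pdb1) and 1 higher (dlp1), against 7.10% and 4.01% of all genes, and limma called 1 lower. The called gene, pdx1, encodes the protein that holds the E3 subunit in the pyruvate dehydrogenase complex, which makes the acetyl-CoA used by citrate synthase. It was at 210.1, 244.8 and 222.1 CPM in the wild type and at 100.7, 105.6 and 112.7 CPM in the mutant. The groups were far apart relative to their spread, with a log2 fold change of -1.09 (SE 0.11, adjusted p = 0.0118, edgeR). Without any one mutant library it did not pass (edgeR, adjusted p = 0.0897 to 0.135). The next genes did not pass: tim11, the subunit e gene of the ATP synthase dimer interface in budding yeast, at -0.52 (adjusted p = 0.0696), the pyruvate dehydrogenase E1 beta gene pdb1 at -0.53 (adjusted p = 0.131) and the ubiquinone methyltransferase gene coq5 at -0.42 (adjusted p = 0.138). The ubiquinone side-chain synthase gene dlp1, named after its values were seen, had every mutant library above the wild type. It was at 68.3, 31.5 and 69.7 CPM in the wild type and at 94.5, 120.5 and 100.2 CPM in the mutant. Wild-type replicate 2 was thus far below the other wild-type libraries. The log2 fold change of dlp1 was 0.89 (SE 0.29, adjusted p = 0.138 in edgeR and 0.0352 in DESeq2). Over the 58 genes the median was -0.07, and 34 lay below 0.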

How the data were processed

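RNA was isolated with Trizol, enriched with oligo(dT), amplified as cDNA and sequenced, per the labels' protocols. Tools named in the submitters' processing notes, without version or role, are DESeq2, RSEM, StringTie, HISAT2, Bowtie2 and fastp. Neither the build nor whether counting used strand is given in the sources used here. The authors deposited, per the file headers, for each gene and library a whole-number count and an FPKM value, and for the comparison a log2 fold change, a p-value and an adjusted p-value.

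From the deposited counts, edgeR 4.0.16 in R 4.3.3 was run over all genes with TMM factors, the default expression filter (4987 genes kept, 173 left out), genotype as the only term, and Benjamini-Hochberg adjustment. Adjusted p-values come from this fit unless another tool is named, and a gene was called under 0.05. The test was tried on simulated data. SE is the log2 fold change divided by the square root of the F statistic. The alternatives were other scaling factors, other filters, DESeq2 1.42.0, limma 3.58.1 on log2(FPKM + 1) and log2(FPKM + 0.1) with a minimum mean FPKM of 1 or with no minimum, removal of a loess trend with gene length, a replicate block, and each library left out. Length was taken from the ratio of count to FPKM.

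The members and lists were chosen with earlier results of these data known. Genes named are the called members, the 3 of smallest adjusted p and the extremes of wild-type FPKM in each group, related pairs, members left out by the filter, and leading genes of the other list. Further members are named after their values were seen. Of 65 names in that list 4 were not matched. RefSeq ASM294v3, used for names and overlaps, matched 64 members. Promoter and protein sequences were not analysed here. Floors of 3 counts cover counting error only, as PCR duplicates were not resolved by molecular identifiers. No replicate pair was a copy (chi-square per degree of freedom 26.4 to 276). The values of 1 member are not reported here, though it is included in the counts, medians and sums.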

Additional observations from a re-analysis of the deposited data

How the results depend on the processing

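The number of genes called was 568 with DESeq2, 3 with a replicate block, 4 with the block and the length trend removed, and 3 to 466 with a library left out (11, 466 and 179 without wild-type replicates 1 to 3, and 5, 7 and 3 without the mutant replicates), against 101. Members called lower were 1 with library totals as the only scaling, 8 with DESeq2, 0 with the block and 0 with the block and the length trend removed. With a library left out they numbered 0 to 7: 0 without wild-type replicate 1 or any mutant replicate, 7 (10.9%, against 9.32% of all genes called in either direction) without wild-type replicate 2, and 2 without wild-type replicate 3. None of the 17 alternatives called a member higher. Other pathway genes called were 4 with DESeq2, 0 with the block, 0 with the block and the length trend removed, and 0 to 8 with a library left out. The members' median ranged from -0.25 to -0.10 with a library left out. The deviations of same-numbered libraries from their group means correlated at 0.17, -0.36 and -0.19. With 3 libraries per group these values cannot decide whether the numbers pair the samples. Over 18 fits, qcr10 was called in 12, qcr9 in 11 and cox17 in 7, with adjusted p of 7.18e-07 to 0.181, 8.36e-05 to 0.252 and 2.73e-04 to 0.227, and all 3 stayed below 0.

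The sign turned in at least 1 alternative in 19 of the 64 tested members, none of them called and all reported at sizes up to 0.26. That of atp25 was -0.0721 with the length trend removed. For cyt2 the value was 0.0053 with library totals, 0.0059, 0.0060 and 0.0059 in the limma fits on log2(FPKM + 1), log2(FPKM + 0.1) and all genes, 0.0581 with the length trend removed and 0.0638 with the block added. For cox24 it was 0.0041 and 0.0025 in the last pair of fits. With a library left out, the ranges were -0.126 to 0.0786 for cyt2, -0.123 to 0.0071 for cox24, -0.405 to 0.0217 for fum1, -0.0809 to 0.104 for sdh3, -0.129 to 0.0561 for sdh7, -0.0717 to 0.107 for cox5, -0.127 to 0.133 for atp2, -0.0695 to 0.149 for cox1101 and -0.128 to 0.116 for idh1. The cause of these changes was not tested. A fit without a library also has fewer samples to estimate the spread.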

Other observations

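The E1 subunit of oxoglutarate dehydrogenase, which works with the E2 subunit encoded by kgd2, is annotated at SPBC3H7.03c, outside the symbol rule and chosen after its value was seen. It was at 434.6, 351.0 and 420.6 CPM in the wild type and at 618.9, 625.5 and 627.1 CPM in the mutant. Every mutant library was above every wild-type library. The log2 fold change of 0.63 did not pass in edgeR (SE 0.13, adjusted p = 0.0512) or limma (adjusted p = 0.0778) and passed in DESeq2 (adjusted p = 8.71e-05). The implied length was 5194 bases, and with the length trend removed the value was 0.47 (edgeR, adjusted p = 0.103). The gene kgd2, whose counts are uncertain, was at -0.21.

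The cytochrome b gene cob1, the mitochondrially encoded subunit of complex III, also lies outside the symbol rule. It had 0, 3 and 0 counts in the wild type and 0, 2 and 1 in the mutant.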
